A study of Arabidopsis thaliana with 4 samples.

Results

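The 9 nuclear genes described here encode the parts of the organelle transcription machinery that choose promoters in chloroplasts and that copy organelle DNA as single-subunit enzymes. They are the 6 sigma factor genes SIG1 to SIG6 and the 3 phage-type RNA polymerase genes RPOTp, RPOTmp and RPOTm, chosen by locus, and all 9 were found among the 31346 genes of the deposited table and were tested. RNA was measured in whole seedlings of Arabidopsis thaliana, 6 d old, in 2 libraries of a line that constitutively overexpresses ClpD in a wild-type background (ClpD-OE, line #5) and 2 libraries of wild type (WT). ClpD is a nuclear-encoded chaperone of the chloroplast Clp protease system, and the study asked how seedlings respond when precursors of chloroplast proteins accumulate. Both ClpD-OE libraries carry the name of the same line, so that overexpression and any other trait of that line cannot be told apart. No source used here gives the promoter of the transgene.

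Chloroplast genes are transcribed by a pair of unlike enzymes. The plastid-encoded polymerase resembles a bacterial enzyme, its core subunits are encoded in the chloroplast genome, and it needs a sigma factor, made in the nucleus and imported, to recognise promoters, mainly those of photosynthesis genes. The nuclear-encoded phage-type polymerases need no sigma factor, and in chloroplasts they transcribe mostly housekeeping genes, among them those for core subunits of the plastid-encoded enzyme. RPOTp works in chloroplasts, RPOTm in mitochondria and RPOTmp in both organelles. Organelle transcripts themselves are not analysed here.

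The results below turn on the phage-type genes, which were higher in ClpD-OE, and on SIG5, which was lower, and the bases before the annotated start of these genes are shown so that genes that moved together and apart can be compared. They come from RefSeq's TAIR10.1 genome and annotation, matched by locus, and read 5′ to 3′ on the strand of the gene, ending at the base before the start. All 4 genes lie on the minus strand, RPOTp at chr2:10254642-10254891, RPOTmp at chr5:5121842-5122091, RPOTm at chr1:25940997-25941163 and SIG5 at chr5:8160344-8160593. Each window lies in no other annotated gene, and that of RPOTm was cut to 167 bases because a tRNA gene lies beyond. Capitals mark matches, on either strand, to the site II element (TGGGCC or TGGGCT), the evening element (AAAATATCT) and the I-box (GATAAG).
RPOTp: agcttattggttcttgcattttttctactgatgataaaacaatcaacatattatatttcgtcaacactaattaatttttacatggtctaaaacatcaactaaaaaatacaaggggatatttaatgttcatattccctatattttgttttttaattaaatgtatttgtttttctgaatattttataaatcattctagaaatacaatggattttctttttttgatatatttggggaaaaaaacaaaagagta
RPOTmp: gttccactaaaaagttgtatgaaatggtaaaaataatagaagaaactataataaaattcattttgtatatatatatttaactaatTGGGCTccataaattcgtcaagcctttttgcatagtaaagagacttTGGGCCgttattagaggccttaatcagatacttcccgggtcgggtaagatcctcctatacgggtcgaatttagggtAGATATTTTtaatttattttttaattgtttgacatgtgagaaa
RPOTm: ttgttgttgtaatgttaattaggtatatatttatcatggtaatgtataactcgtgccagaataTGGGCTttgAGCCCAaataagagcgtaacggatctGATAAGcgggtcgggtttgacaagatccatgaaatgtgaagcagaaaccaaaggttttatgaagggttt
SIG5: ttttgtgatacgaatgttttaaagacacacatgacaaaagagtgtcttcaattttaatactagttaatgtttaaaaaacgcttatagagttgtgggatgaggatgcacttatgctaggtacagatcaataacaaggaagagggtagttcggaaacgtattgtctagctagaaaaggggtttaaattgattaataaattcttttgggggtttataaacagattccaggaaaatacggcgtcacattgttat

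In windows of 250 bases, TGGGCC was found before 6 of the 9 genes, SIG1, SIG2, SIG4, SIG6, RPOTmp and RPOTm, against 13.7% of the 27443 protein-coding genes of the nuclear chromosomes. The windows of SIG1, SIG2, SIG3, SIG6 and RPOTm reach into another annotated gene. SIG2, SIG4 and RPOTmp have a whole TGGGCC outside other genes, while both matches of SIG1 lie in AT1G64850, that of SIG6 reaches into AT2G37000 and those of RPOTm lie in the tRNA gene. TGGGCT was found in SIG6, RPOTmp and RPOTm, against 12.3% of all promoters, in SIG6 within AT2G37000. The evening element was found in SIG3 and RPOTmp, against 2.36%, the I-box in SIG3 and RPOTm, against 12.3%, and the CCA1-binding site AAAAATCT in SIG4, against 6.69%. All 250 bases of the SIG3 window lie in AT3G00910, a miscellaneous RNA gene, and so do both of its matches. The G-box CACGTG, the telo-box AAACCCTA, the mitochondrial dysfunction motif (CTTG and, after 5 bases of any kind, CAAG) and the heat shock element (3 alternating triplets GAA and TTC, each pair set 2 bases apart, begun with either) had 0 matches in the 9 windows. All promoters held them in 6.49%, 4.49%, 0.74% and, for each form of the heat shock element, 0.386% of cases. RPOTp and SIG5, which moved in opposite directions, had no match to any of these motifs. These matches are descriptions of the windows, not binding sites.

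Total counts per library lay between 20800842 and 23294451, and the 9 genes together took between 537 and 631 counts per 1000000 (CPM). The overexpressed gene CLPD (AT5G51070) had 1669 and 1870 normalized CPM in ClpD-OE and 151 and 147 in WT, 11.9-fold more, as the label of the line says. Normalized CPM are CPM on library sizes scaled by TMM, the trimmed mean of M-values method of edgeR. No label says that replicates came from separate cultures, so the p-values reflect spread between these 4 samples, and that spread may be technical.

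All 3 phage-type polymerase genes rose in ClpD-OE, 2.11- to 2.42-fold, and of the 6 sigma factor genes SIG5 and SIG1 fell while 0 rose. Across all 18940 tested genes 8.19% were called different at an adjusted p under 0.05 (quasi-likelihood test of edgeR, Benjamini-Hochberg), 4.29% higher and 3.91% lower, against 5 of these 9 genes, 3 higher and 2 lower. DESeq2 called these same 5 genes and 10.7% of the 20105 genes it tested, 4.81% higher and 5.90% lower. For sigma factors, 1 gene was higher at an unadjusted p under 0.05 (SIG6) and 0 were called higher by DESeq2. In RNA of whole seedlings, fewer cells of a type and less RNA per cell cannot be told apart.

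**Figure D1:**
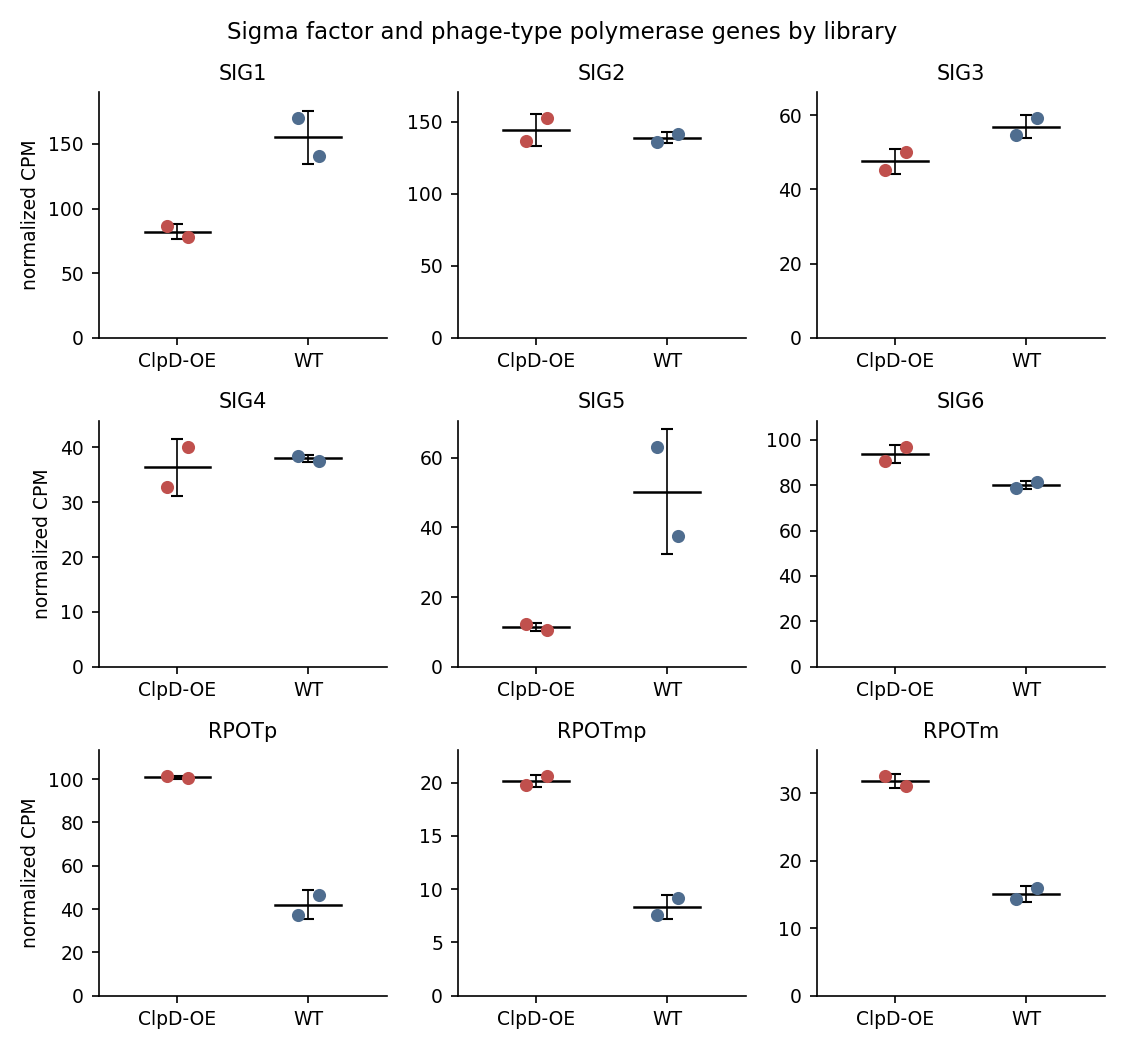
Normalized CPM (counts per 1000000 of a library size scaled by TMM, vertical axes from 0) of the 9 genes in each library, ClpD-OE left and WT right. Points are libraries, lines are means and bars are SD (n = 2 each). The phage-type genes in the bottom row stand higher in both ClpD-OE libraries than in either WT library, SIG1 and SIG5 stand lower, and SIG2 and SIG4 overlap.

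RPOTp (AT2G24120, chromosome 2, named SCA3 in the table), the polymerase of chloroplasts, had 101 and 100.4 normalized CPM in ClpD-OE and 37.3 and 46.7 in WT. The ClpD-OE libraries were nearly alike, and both stood far above the higher WT library. The means were 100.8 ± 0.645 in ClpD-OE and 42.0 ± 6.63 in WT (SD, n = 2 each), a 2.40-fold rise (log2 fold change 1.26 with SE 0.126; adjusted p = 0.0190 by edgeR). RPOTmp (AT5G15700, chromosome 5), which serves both organelles, had 19.8 and 20.6 CPM in ClpD-OE and 7.53 and 9.16 in WT. Its groups did not overlap, and it rose 2.42-fold (log2 fold change 1.27 with SE 0.140; adjusted p = 0.0195 by edgeR). RPOTm (AT1G68990, chromosome 1, named MGP3 in the table), the mitochondrial polymerase, had 32.5 and 31.1 CPM in ClpD-OE and 14.3 and 15.9 in WT. It too had groups that did not overlap, and it rose 2.11-fold (log2 fold change 1.08 with SE 0.109, edgeR adjusted p = 0.0193). Groups that did not overlap were found for 59.9% of all tested genes.

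Rises larger than those of the phage-type genes were found in 2.65% of tested genes for RPOTp, 2.58% for RPOTmp and 3.82% for RPOTm. WT replicate 1 was the library farthest from ClpD-OE for each of them, with log2 differences of WT replicate 2 from replicate 1 of 0.32 for RPOTp, 0.27 for RPOTmp and 0.15 for RPOTm. With that library left out their log2 fold changes were 1.11, 1.14 and 1.00, still called by edgeR (adjusted p = 0.0289, 0.0356 and 0.0356). RPOTm shares 34 bases of its 6000-base span with AT1G68980 on the other strand, a gene with 167 and 198 counts in ClpD-OE and 88 and 113 in WT. RPOTm itself had 813 and 770 counts in ClpD-OE and 269 and 328 in WT. No source used here says whether strand was used in counting, so reads of the shared bases cannot be assigned.

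SIG5 (AT5G24120, chromosome 5, named SIGE in the table) had the largest difference of the 9 genes. Its product drives the light-responsive promoter of the chloroplast gene psbD, which encodes a reaction centre protein of photosystem II, and SIG5 itself is known to respond to blue light, stress and the circadian clock. It had 12.2 and 10.5 normalized CPM in ClpD-OE and 63.0 and 37.5 in WT, or 304 and 260 counts in ClpD-OE and 1188 and 775 in WT. Both ClpD-OE libraries lay far under the lower WT library, and the WT libraries themselves differed by a log2 value of -0.74 (replicate 2 minus replicate 1). SIG5 fell 4.43-fold (log2 fold change -2.15 with SE 0.269; adjusted p = 0.0237 by edgeR), and larger falls were found in 0.681% of tested genes. Without WT replicate 1 the log2 fold change was -1.73 and without WT replicate 2 it was -2.48, called in both cases (edgeR adjusted p = 0.0263 and 0.00624).

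SIG1 (AT1G64860, chromosome 1, named SIGA in the table), a sigma factor linked to photosystem genes of the chloroplast, had 86.2 and 78.2 normalized CPM in ClpD-OE and 169.9 and 141 in WT. The groups did not overlap, as in 59.9% of all tested genes. SIG1 fell 1.89-fold (log2 fold change -0.92 with SE 0.121; adjusted p = 0.0248 by edgeR). In WT, replicate 1 was higher than replicate 2 for both SIG1 and SIG5, the library that was lower for the phage-type genes.

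The other 4 sigma factor genes did not pass the test. SIG2 (AT1G08540, chromosome 1), which drives chloroplast tRNA genes among others, had 136 and 152 CPM in ClpD-OE and 136 and 141 in WT, groups that overlapped (log2 fold change 0.058 with SE 0.091; adjusted p = 0.724 by edgeR). SIG4 (AT5G13730, chromosome 5), tied to the chloroplast gene ndhF, had 32.7 and 40.0 CPM in ClpD-OE and 38.5 and 37.6 in WT, also overlapping (log2 fold change -0.065 with SE 0.124; adjusted p = 0.771 by edgeR). For these 2 genes the direction turned with the choice of library, and for SIG4 with the scaling too. SIG4 also shares 201 bases with AT5G13720 on the other strand, a gene with 770 and 769 counts in ClpD-OE and 682 and 878 in WT, while SIG4 had 818 and 991 in ClpD-OE and 726 and 776 in WT.

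SIG6 (AT2G36990, chromosome 2), which acts on many chloroplast promoters early in seedling development, had 90.9 and 96.8 CPM in ClpD-OE and 78.8 and 81.4 in WT. SIG3 (AT3G53920, chromosome 3), tied to the chloroplast gene psbN, had 45.1 and 50.0 CPM in ClpD-OE and 54.7 and 59.2 in WT. In both genes the groups did not overlap, which was also so for 59.9% of all tested genes. Their log2 fold changes were 0.23 (SE 0.082; adjusted p = 0.148 by edgeR) for SIG6 and -0.26 (SE 0.097; adjusted p = 0.160 by edgeR) for SIG3. With library totals in place of TMM, which moved the median log2 fold change of all genes to 0.23, SIG6 was called higher (log2 fold change 0.45, edgeR adjusted p = 0.0344). Relative to that median its value was much as before.

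In the authors' deposited table, whose test is not named, the adjusted p-values were 2.43e-10 for RPOTp, 2.17e-06 for RPOTmp, 1.35e-06 for RPOTm, 7.9e-12 for SIG5 and 3.97e-06 for SIG1. Those for the other sigma factor genes in the authors' deposited table lay between 0.444 and 0.958. Of all genes listed there, 6.55% had an adjusted p under 0.05. The authors' values come from the same 4 libraries.

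**Figure D2:**
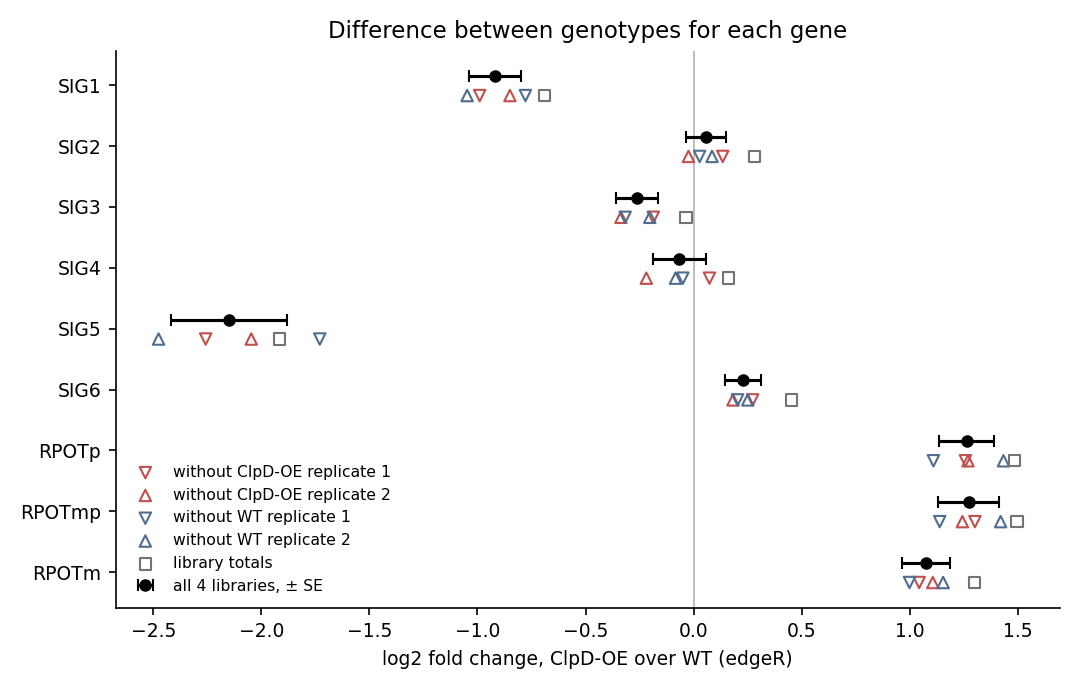
Log2 fold change, ClpD-OE over WT, of each gene from edgeR (horizontal axis); filled points with bars are all 4 libraries ± SE, open triangles leave out 1 library and open squares use library totals in place of TMM. SIG1 and SIG5 stay to the left of 0 and the phage-type genes to the right in every one of these fits, while SIG2 and SIG4 fall on both sides.

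Without ClpD-OE replicate 1 or 2, edgeR called 0 of the 9 genes, with 5 at an unadjusted p under 0.05 each time (adjusted p from 0.170 to 0.193 for SIG1, SIG5 and the phage-type genes), and it called 0 of all genes as well, with 3603 and 3034 at an unadjusted p under 0.05. DESeq2 then called 4 without replicate 1, all but RPOTm (adjusted p = 0.0658), and 2 without replicate 2, SIG5 and RPOTp, with adjusted p = 0.0613, 0.0801 and 0.0549 for SIG1, RPOTmp and RPOTm.

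Levels of different genes can be compared only per length of transcript, as the authors' FPKM, since the phage-type genes have coding sequences of 2952 to 3156 bases and the sigma factor genes of 1260 to 1719 bases (RefSeq, TAIR10.1). In ClpD-OE, mean FPKM ran from SIG2 (76.0 ± 6.58) through SIG6 (49.5 ± 2.65), SIG1 (40.3 ± 2.41), RPOTp (30.2 ± 0.102), SIG4 (27.0 ± 4.08), SIG3 (23.9 ± 1.89) and RPOTm (9.33 ± 0.204) to SIG5 (5.83 ± 0.548) and RPOTmp (5.37 ± 0.231) (SD, n = 2). In WT the order was SIG1 (65.1 ± 6.82), SIG2 (62.5 ± 3.48), SIG6 (36.2 ± 1.83), SIG3 (24.6 ± 2.05), SIG4 (24.1 ± 0.273), SIG5 (22.1 ± 7.33), RPOTp (10.8 ± 1.99), RPOTm (3.79 ± 0.393) and RPOTmp (1.93 ± 0.338). Neighbours whose libraries overlapped were SIG4 with SIG3 and SIG5 with RPOTmp in ClpD-OE, and SIG1 with SIG2, SIG3 with SIG4 and SIG4 with SIG5 in WT. In both WT libraries all 6 sigma factor genes stood above all 3 phage-type genes, while in both ClpD-OE libraries RPOTp stood above SIG3, SIG4 and SIG5.

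Within the sigma factor transcripts, the shares of 5 of the 6 genes did not overlap between the genotypes, beside 59.9% of all tested genes whose normalized CPM did not overlap. SIG2 made up 33.3% and 34.9% of the summed sigma factor FPKM in ClpD-OE and 25.1% and 28.2% in WT. For SIG6 the shares were 22.3% and 22.2% in ClpD-OE and 14.6% and 16.3% in WT, and for SIG1 19.6% and 16.7% in ClpD-OE and 29.2% and 26.2% in WT. SIG5 made up 2.91% and 2.35% in ClpD-OE and 11.4% and 7.34% in WT. The shares of SIG4 also stood apart, with means of 12.1% in ClpD-OE and 10.3% in WT, while those of SIG3 overlapped. The SIG4 difference of 1.80 percentage points was 0.97 without ClpD-OE replicate 2. With 2 libraries against 2, a two-sided exact permutation test cannot go below p = 0.333, the value it gave for each of these 5 genes. The ratio of SIG2 to SIG5 was 11.5 and 14.8 in ClpD-OE and 2.2 and 3.85 in WT. The shares of a library sum to 100%, so that the larger shares of SIG2 and SIG6, neither of which was called higher, go with the smaller ones of SIG1 and SIG5. A share does not depend on how libraries are scaled to each other.

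Summed over the 6 sigma factor genes, FPKM were 214 and 231 in ClpD-OE and 239 and 230.0 in WT, groups that overlapped. Divided by the TMM factors, the sums were 199 and 213 in ClpD-OE and 264 and 244 in WT and did not overlap, so that a difference in the total depends on the scaling. For the phage-type genes the summed FPKM were 44.8 and 45.0 in ClpD-OE and 14.6 and 18.4 in WT, and they stood apart with either scaling. RPOTp took 67.2% and 67.3% of that sum in ClpD-OE and 64.3% and 66.2% in WT, RPOTm 21.2% and 20.4% in ClpD-OE and 24.1% and 22.1% in WT, and RPOTmp 11.6% and 12.3% in ClpD-OE and 11.6% and 11.8% in WT, of which only the last overlapped. Without WT replicate 1 the differences were 1.09 percentage points for RPOTp, in place of 2.01, and -1.31 for RPOTm, in place of -2.32. The ratio of summed sigma factor to summed phage-type FPKM was 4.78 and 5.14 in ClpD-OE and 16.4 and 12.5 in WT, which is free of library scaling.

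**Figure D3:**
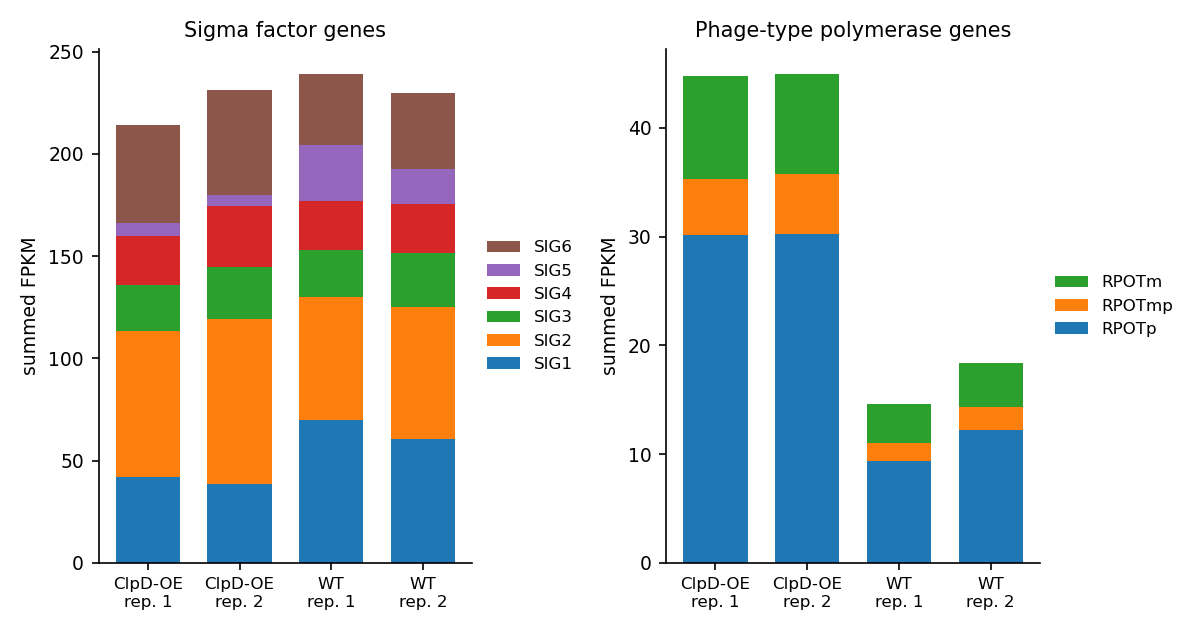
Summed FPKM (the authors' values, vertical axes from 0) of the sigma factor genes on the left and the phage-type polymerase genes on the right, divided by gene, in the 2 ClpD-OE and the 2 WT libraries. The sigma factor bars are of like height, between 214 and 239, with smaller SIG1 and SIG5 segments in ClpD-OE, while the phage-type bars are 44.8 and 45.0 in ClpD-OE and 14.6 and 18.4 in WT.

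The plastid-encoded polymerase works with a set of nuclear-encoded associated proteins, and of these 12 genes edgeR called 5 higher and 0 lower. Over all tested genes it called 4.29% higher and 3.91% lower. At an unadjusted p under 0.05, 11 were higher and 0 lower, beside 2684 and 2664 of all 18940 tested genes. DESeq2 called 6 higher and 0 lower, beside 4.81% and 5.90% of the genes it tested. The median log2 fold change of the 12 genes was 0.49, beside 0.0011 over all tested genes and 1.26 for the phage-type genes. PAP6 (FLN1), a fructokinase-like protein, had 90.0 and 90.3 normalized CPM in ClpD-OE and 36.3 and 41.2 in WT, a 2.33-fold rise (edgeR adjusted p = 0.0188). PAP3 (pTAC10), a protein of the plastid chromosome, rose by a log2 fold change of 1.14. PAP5 (pTAC12, also called HEMERA, a protein of phytochrome signalling and chloroplasts) rose 1.93-fold, PAP7 1.64-fold and PAP1 1.43-fold. PAP12 (pTAC7) stood at 0.028 on the log2 scale and missed the threshold. Without WT replicate 1, PAP1 and PAP7 stood at 0.42 and 0.57 on the log2 scale and were not called by edgeR. That fit called fewer of all tested genes too. Leaving out WT replicate 2 gave more calls, both in the list and over all tested genes. WT replicate 2 stood above WT replicate 1 here by 0.27 (median log2 difference), and by 0.27 for the phage-type genes as well.

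Among 13 genes for interactors and regulators of the organelle polymerases, edgeR called 5 higher and 0 lower. Over all tested genes these shares were 4.29% and 3.91%. At an unadjusted p under 0.05, 7 of the 13 were higher and 1 lower, beside 2684 and 2664 of all 18940 tested genes. DESeq2 called 6 of the list higher and 0 lower, beside 4.81% and 5.90% of the genes it tested. PRDA1, a chloroplast protein needed for activity of the plastid-encoded polymerase, had 43.9 and 38.7 normalized CPM in ClpD-OE and 14 and 18.6 in WT, a 2.53-fold rise (edgeR adjusted p = 0.0232). FLN2, a partner of PAP6, rose 2.29-fold and PRIN2, a redox-responsive chloroplast protein, 2.23-fold. NIP2, a thylakoid protein that binds RPOTmp, rose 1.78-fold and NCP, which takes part in assembly of the plastid-encoded polymerase, 1.66-fold. CSK, a chloroplast sensor kinase that acts on SIG1, stood at -0.36 on the log2 scale (adjusted p = 0.0723 by edgeR). DESeq2 did not call CSK either (log2 fold change -0.36, adjusted p = 0.128), nor did edgeR with library totals (-0.13, adjusted p = 0.314). It passed in an edgeR fit with the replicate number as a block (-0.36, adjusted p = 0.0398). Leaving out 1 library, its edgeR log2 fold change ranged from -0.43 to -0.285. The median of the list was 0.31. Without WT replicate 1, NIP2 and NCP stood at 0.72 and 0.69 on the log2 scale and were not called, in a fit that called fewer of all tested genes.

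Genes of organelle DNA replication, topology and repair were called higher by edgeR in 5 of 14 cases and lower in 0. Over all tested genes these shares were 4.29% and 3.91%. At an unadjusted p under 0.05, 8 of the 14 were higher and 0 lower, beside 2684 and 2664 of all 18940 tested genes. DESeq2 called 6 of the list higher and 0 lower, beside 4.81% and 5.90% of the genes it tested. The list had a median log2 fold change of 0.41. TWINKLE, an organelle DNA primase and helicase, had 61.6 and 56.9 normalized CPM in ClpD-OE and 31.7 and 33.5 in WT, a 1.82-fold rise (edgeR adjusted p = 0.0193). The mitochondrial single-stranded DNA binding protein gene WHY2 rose 1.79-fold, the organelle DNA polymerase gene POLIB 1.66-fold and the gyrase genes GYRB2 and GYRA 1.55-fold and 1.36-fold. Without WT replicate 1 only TWINKLE was still called by edgeR. WHY2, POLIB, GYRB2 and GYRA then stood at 0.73, 0.62, 0.62 and 0.39 on the log2 scale. With either ClpD-OE library left out, DESeq2 no longer called any gene of the list. These fits also called fewer of all tested genes. GYRA also missed the threshold without a filter on low counts (adjusted p = 0.0511).

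**Figure D4:**
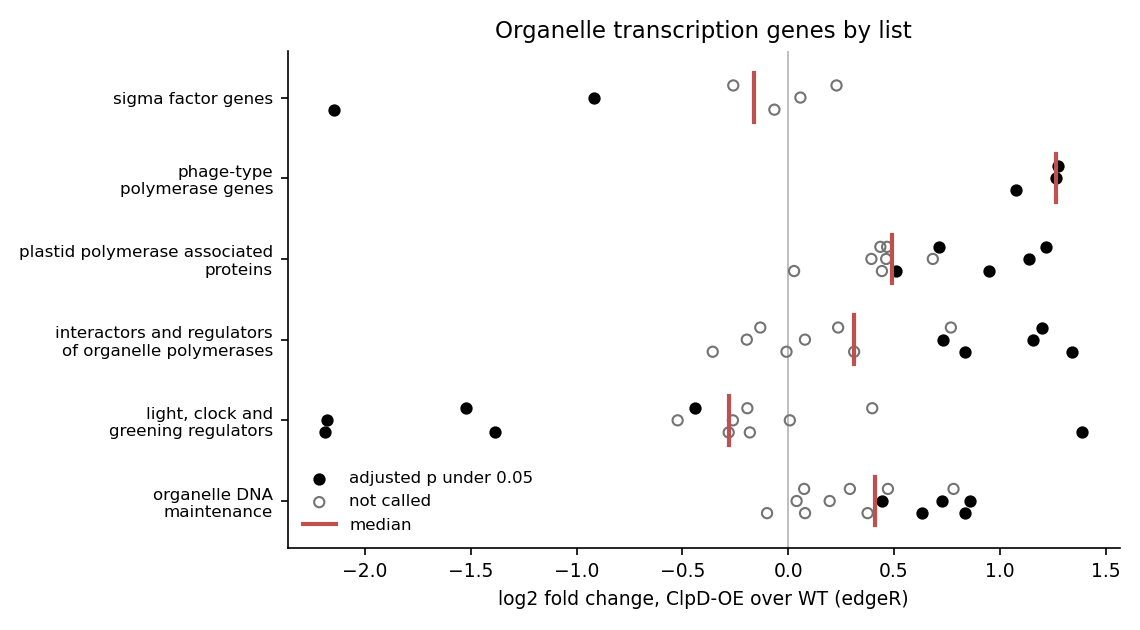
Log2 fold change, ClpD-OE over WT, from edgeR (horizontal axis) of the genes of each list, filled where the adjusted p was under 0.05 and open where not, with the median as a red bar. The phage-type genes sit at 1.08 to 1.27, the sigma factor genes spread from -2.15 to 0.23, and the associated proteins lie at 0.028 to 1.22.

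Light, clock and greening regulators that are known to act on chloroplast genes or on SIG5 were called lower in 5 of 13 cases and higher in 1. Their median log2 fold change was -0.28. At an unadjusted p under 0.05, 7 were lower and 1 higher, beside 2664 and 2684 of all 18940 tested genes. DESeq2 called 5 lower and 1 higher, beside 5.90% and 4.81% of the genes it tested. Over all tested genes edgeR called 3.91% lower and 4.29% higher. GLK1 and GLK2, transcription factors of chloroplast development, fell 2.62-fold and 2.87-fold (edgeR adjusted p = 0.0193 for both). TOC1, an evening gene of the circadian clock, rose 2.62-fold, with 110.1 and 117 normalized CPM in ClpD-OE and 33.9 and 53.0 in WT. CCA1, a morning gene of the clock, had 12.3 and 8.12 CPM in ClpD-OE and 62.1 and 30.5 in WT, and LHY, its close relative, had 1.84 and 1.82 in ClpD-OE and 10.8 and 5.91 in WT. Both fell, CCA1 4.52-fold and LHY 4.55-fold, and in both WT replicate 1 was the higher WT library, as it was for SIG5. CRY1, a blue-light receptor gene, fell 1.36-fold (edgeR adjusted p = 0.0426), and it was not called with library totals or without either WT library (adjusted p = 0.162, 0.0662 and 0.0548). Without WT replicate 1 the edgeR log2 fold changes were -1.58 for CCA1 and -1.69 for LHY. CCA1 was then not called by edgeR, and LHY was not called by DESeq2. LHY had 46 and 45 counts in ClpD-OE and 204 and 122 in WT. HY5, which encodes a light-signalling factor, was at a log2 fold change of -0.26 (edgeR adjusted p = 0.514). The part of the clock genes' difference in that of SIG5 was not tested, and no source used here gives the hour of harvest.

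Of 10 root marker genes 6 were tested. Calls numbered 0 by edgeR and 0 by DESeq2, 1 gene was under 0.05 unadjusted, and EXPA7 and RHD6 had no count in 3 of the 4 libraries. Their summed level, in CPM on library totals without TMM scaling, was 1383 and 1446 in ClpD-OE and 1135 and 1294 in WT. Most of it was PYK10, and without PYK10 the sums were 36.6 and 48.3 in ClpD-OE and 28.3 and 32.4 in WT. In normalized CPM, PYK10 had 1254 and 1285 in ClpD-OE and 1221 and 1338 in WT, groups that overlapped. Of 6 shoot epidermis and guard cell markers, 0 were called by edgeR, 0 by DESeq2 and 2 were under 0.05 unadjusted. Their sums, also on library totals, were 2330 and 2319 CPM in ClpD-OE and 2821 and 2168 in WT. Their part in the differences above was not tested.

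The genes whose 4 library values most resembled those of the phage-type polymerases were sought outside the 9 genes, by the Euclidean distance between profiles of log2(normalized CPM + 0.5), each centred on its own mean, among 14253 genes with a mean of at least 5 CPM. For RPOTp they were AT4G12750, annotated as a homeodomain-like regulator, at a distance of 0.054, MSI3, annotated as a WD-40 repeat protein, at 0.059 and AT1G48570, annotated as a zinc finger protein, at 0.061. For RPOTmp they were AT4G12750 again, EMB175, annotated as a pentatricopeptide repeat protein, and FLN1, named PAP6 above, at 0.060, 0.067 and 0.072. Those of RPOTm were AT1G45332, annotated as a translation elongation factor, at 0.013, EMB2785, annotated as an elongation factor family protein, at 0.043 and EMB3012 at 0.050. RPOTp and RPOTmp lay 0.069 apart, with 3 genes closer to RPOTp and 2 closer to RPOTmp, so that RPOTp stood nearer to RPOTmp than FLN1 did. RPOTm lay farther off, 0.21 from RPOTmp, with 105 genes closer to it. With 4 libraries many genes have like profiles, so that nearness here is a description.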

How the data were processed

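RNA-seq of 4 libraries was used, 2 of ClpD-OE and 2 of WT, grouped by title and genotype. Per the labels' protocols, mRNA was enriched on oligo(dT). The submitters' processing notes name RSEM, HISAT2, DESeq2, StringTie 1.3.1, Bowtie2 2.2.8 and fastp 0.18.0, and the build TAIR10, with no role or order. The deposited estimated counts per gene are whole numbers, not normalized, and rounding changed 0 of them. The authors' FPKM values, per the file headers, were used for levels between genes. The log2 fold change and p-value columns of the deposited table are the authors' own. No coordinates come from the files, and promoter windows are RefSeq's TAIR10.1.

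The test on the counts of all genes was that of edgeR 4.0.16 under R 4.3.3 (TMM, filterByExpr, estimateDisp, glmQLFit and glmQLFTest at their defaults, genotype as the only term), adjusted by Benjamini-Hochberg over 18940 genes and called at an adjusted p under 0.05. The SE is the log2 fold change over the square root of F. TMM factors were 1.07 and 1.09 for ClpD-OE and 0.907 and 0.943 for WT. The common biological coefficient of variation came to 0.140. The code was tested on simulated data. Replicates differed by more than sampling noise, with a chi-square per degree of freedom of 10.2 between the ClpD-OE and 18.6 between the WT libraries.

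Members and lists were chosen with earlier results of these data known. The text names all 9 members and, from each list, the called genes with the smallest p, up to 3, and up to 3 nearest profiles for 3 members. CCA1, LHY, CRY1, HY5, CSK, PAP1, PAP7, PAP12, PRIN2, NIP2, WHY2 and GYRA were named after their values were seen. Alternatives were DESeq2 1.42.0, other scalings and filters, a block for the replicate number, the newer quasi-likelihood fit and leaving out each library.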

Additional observations from a re-analysis of the deposited data

How the results depend on the processing

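SIG1, SIG5, RPOTp, RPOTmp and RPOTm kept their direction under every alternative run, and the edgeR or DESeq2 calls under each setting that used all 4 libraries. Leaving out 1 library, the edgeR log2 fold changes ranged from -1.05 to -0.78 for SIG1, -2.48 to -1.73 for SIG5, 1.11 to 1.43 for RPOTp, 1.14 to 1.42 for RPOTmp and 1.00 to 1.16 for RPOTm, with adjusted p from 0.00624 to 0.193, and the counts of these 9 genes from 0 to 3 higher and 0 to 2 lower. By DESeq2 without ClpD-OE replicate 2, 1 was called higher and 1 lower (log2 fold changes -0.85 for SIG1, 1.25 for RPOTmp and 1.11 for RPOTm, not called), and RPOTm at 1.04 was not called without ClpD-OE replicate 1. These DESeq2 fits were chosen after seeing the data. SIG2 turned to -0.024 without ClpD-OE replicate 2, in edgeR and DESeq2. Its edgeR range leaving out 1 library was -0.024 to 0.13, and with library totals it stood at 0.28. SIG4 turned to 0.16 with library totals, and to 0.073 (edgeR) and 0.068 (DESeq2) without ClpD-OE replicate 1. Its edgeR range leaving out 1 library was -0.22 to 0.073. SIG6 was called with library totals (0.45), which moved the median log2 fold change of all genes to 0.23. SIG4 turned under that same scaling. The cause of the turns on leaving out 1 library was not tested.

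Leaving out 1 library, the counts called higher ranged from 0 to 10 for associated proteins, 0 to 6 for interactors, 0 to 2 for light and clock regulators and 0 to 6 for DNA maintenance, and those lower from 0 to 1 for interactors and 0 to 4 for light and clock regulators. Library totals gave 10 higher associated proteins, 8 interactors and 9 DNA maintenance genes. With them 2699 of 18940 tested genes were called higher, against 812 with TMM, and the median log2 fold change was 0.23. DESeq2 without ClpD-OE replicate 1, ClpD-OE replicate 2 or WT replicate 1 called fewer genes of each of these lists than with all 4 libraries. It then called fewer of all tested genes too.

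The labels state no pairing. Replicate 1 minus replicate 2 correlated at 0.29 over genes between the genotypes, which with 2 pairs does not show pairing. With the replicate number as a block, 3513 genes were called in place of 1552, with the same 3 higher and 2 lower among the 9 genes (log2 fold changes -0.91 for SIG1, -2.11 for SIG5, 1.27 for RPOTp, 1.28 for RPOTmp and 1.08 for RPOTm), 11 higher associated proteins and 1 lower interactor. Leaving out 1 library, the difference in share turned sign for SIG3 (-0.59 to 1.06 percentage points) and RPOTmp (-0.035 to 0.64). It kept its sign for SIG1 (-11.1 to -8.06), SIG2 (5.88 to 9.03), SIG4 (0.97 to 2.62), SIG5 (-8.76 to -4.71), SIG6 (5.96 to 7.67), RPOTp (1.09 to 2.94) and RPOTm (-3.33 to -1.31). Where 1 library of a genotype was left, it is assumed to vary like the other genotype. With 2 libraries per group, differences as small as those of SIG3 and SIG6 cannot be settled.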
